A study of Homo sapiens with 24 samples.

Results

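The data are 2 trios of expression microarrays from Huh7.5.1, a human hepatoma line. Its cells had received either silymarin, a flavonoid mixture from milk thistle, or the solvent DMSO. All samples are titled as without virus, and the labels give no dose of silymarin. The all-DMSO trio holds 3 arrays labelled DMSO: replicate 1 at 4 h, replicate 1 at 8 h and replicate 4 at 8 h. The mixed trio holds DMSO replicate 5 at 8 h, silymarin replicate 3 at 8 h and silymarin replicate 1 at 24 h. Together these are 6 of the 24 arrays of the series, which has 4 DMSO and 4 silymarin arrays at 4 h, 5 and 3 at 8 h, and 5 and 3 at 24 h. The 6 were chosen from array similarity among arrays in which DDIT4 lay above 9.0 on the log2 scale, so every difference given between the trios is a description and carries no test. All levels are log2 expression values, on which a difference of 1 is a 2-fold difference. Values of the all-DMSO trio are given in the order named above, and so are those of the mixed trio.

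DDIT4 and ASNS are targets of ATF4, the transcription factor of the integrated stress response, which cells switch on when amino acids are short or proteins misfold. DDIT4 restrains the growth kinase mTOR, and ASNS makes asparagine. NF-kB is a family of transcription factors that drives chemokines, adhesion molecules and its own inhibitors, and in liver cells it works beside signals that raise acute phase proteins such as haptoglobin. The 4 genes named as markers of the trios are CXCL10, a chemokine for T cells; CXCL8, a chemokine for neutrophils; SLC6A14, an importer of neutral and basic amino acids; and HP, which encodes haptoglobin.

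Promoter sequence is shown for the 3 markers with an entry in the RefSeq promoter table, because most genes that differed by 2-fold between the trios carry a match to an NF-kB type motif in this window. Each run is the 250 bases before the transcription start, on the gene's strand, in build GRCh38.p14. The windows are chr4:76023498-76023747 on the minus strand for CXCL10, chr4:73740319-73740568 on the plus strand for CXCL8 and chrX:116436356-116436605 on the plus strand for SLC6A14. Capitals mark matches to GGNNNTTCC on either strand.
CXCL10: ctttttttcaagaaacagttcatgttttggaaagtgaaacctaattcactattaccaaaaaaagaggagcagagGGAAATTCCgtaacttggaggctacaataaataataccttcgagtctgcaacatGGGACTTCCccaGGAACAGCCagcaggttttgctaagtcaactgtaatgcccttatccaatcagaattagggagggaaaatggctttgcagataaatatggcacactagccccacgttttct
CXCL8: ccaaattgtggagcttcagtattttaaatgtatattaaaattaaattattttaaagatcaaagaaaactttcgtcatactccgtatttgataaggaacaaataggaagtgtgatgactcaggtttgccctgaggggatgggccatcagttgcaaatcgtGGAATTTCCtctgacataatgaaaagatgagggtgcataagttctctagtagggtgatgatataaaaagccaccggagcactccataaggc
SLC6A14: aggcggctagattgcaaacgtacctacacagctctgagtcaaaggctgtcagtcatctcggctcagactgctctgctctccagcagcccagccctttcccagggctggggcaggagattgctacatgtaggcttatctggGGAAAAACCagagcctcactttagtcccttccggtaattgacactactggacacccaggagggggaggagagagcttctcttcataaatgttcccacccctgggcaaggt
CXCL10 has 3 matches, which begin 176, 122 and 110 bases before the start. CXCL8 has 1, at 91 bases, and SLC6A14 has 1, at 110 bases.

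The DDIT4 level did not follow the treatment labels, and whether any array carries the wrong label was not tested. It lay above 9.0 in 10 of the 24 arrays, 6 labelled DMSO and 4 labelled silymarin, and at or below 9.0 in the other 14. DDIT4 was 9.69, 9.67 and 10.28 in the all-DMSO trio and 10.11, 10.05 and 10.16 in the mixed trio. The other 4 high arrays (DMSO 4 h replicate 4, silymarin 4 h replicate 1, silymarin 8 h replicate 1 and DMSO 24 h replicate 3) read 10.01 to 10.34, and the 14 low arrays 7.5 to 8.35. No array lay between 8.35 and 9.67, so the threshold fell in a wide gap. ASNS was 11.15, 11.04 and 11.26 in the all-DMSO trio and 11.20, 10.85 and 10.96 in the mixed trio. All 6 trio arrays stood above the other 4 high arrays, at 10.49 to 10.63, and above the low arrays, at 9.33 to 10.13. The trios overlapped each other for both genes.

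Similarity was measured as the correlation of 2 arrays over 11583 genes with a mean of at least 7.0, after each gene was centred on its mean over the 24 arrays. The pairs inside the all-DMSO trio had r of 0.63 to 0.68 and the pairs inside the mixed trio 0.44 to 0.64. Between the trios r ran from 0.16 to 0.47, with a median of 0.31. The mixed trio was the looser of the pair. DMSO 8 h replicate 5 correlated at 0.47 with DMSO 8 h replicate 4 of the all-DMSO trio and at 0.44 with silymarin 8 h replicate 3 of its own trio. Against the other 4 high arrays the all-DMSO trio had r of -0.22 to 0.15 and the mixed trio -0.17 to 0.44. Genes are not independent replicates, and these values are those that chose the arrays.

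**Figure D1:**
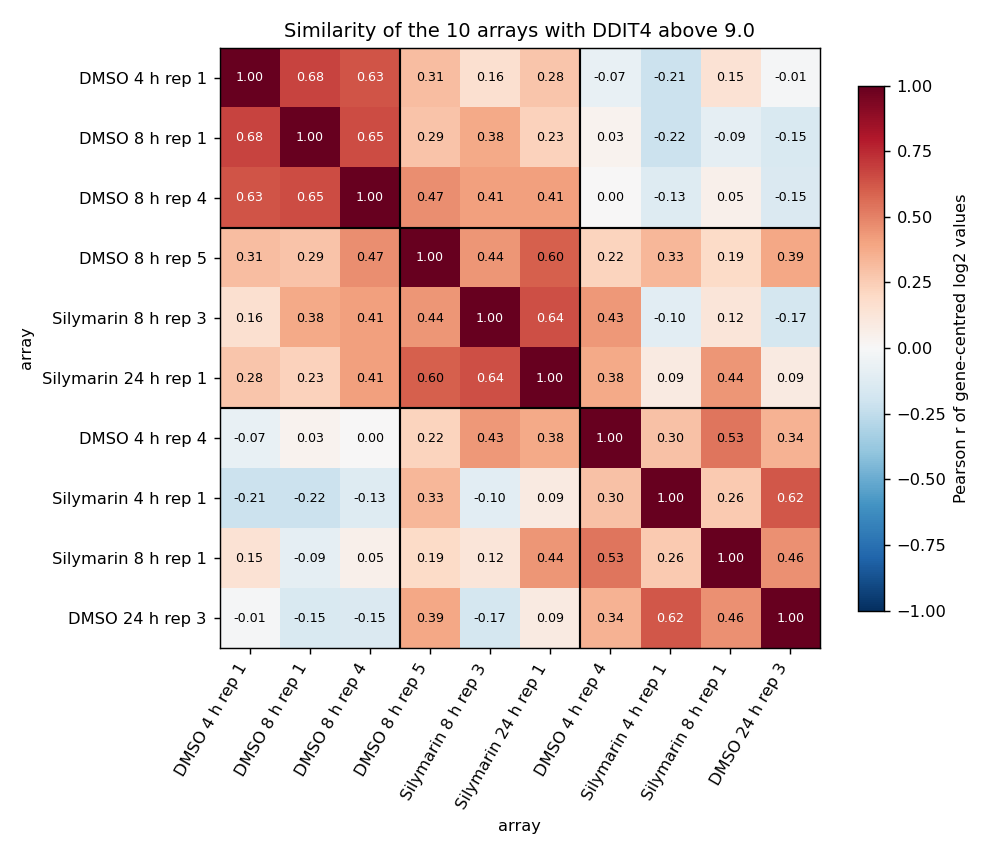
Pearson r of gene-centred log2 values for each pair of the 10 arrays with DDIT4 above 9.0, in the order all-DMSO trio, mixed trio, other 4, with black lines between the sets. The all-DMSO block holds 0.63 to 0.68, the mixed block 0.44 to 0.64 and the pairs between the trios 0.16 to 0.47.

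Hepatocyte markers were bright in both trios, with overlapping levels. The mean over 7 measured hepatocyte markers, among them ALB, AFP and APOB, was 12.65 to 12.71 in the all-DMSO trio and 12.68 to 12.74 in the mixed trio. Means over 10 macrophage markers were 6.92 to 7.0 and 6.95 to 7.0, over 10 lymphocyte markers 5.94 to 6.06 and 6.0 to 6.10, over 10 fibroblast and stellate markers 6.24 to 6.35 and 6.25 to 6.38, and over 11 endothelial markers 5.95 to 6.09 and 5.92 to 6.02. At or above 7.0 on average were 4, 2, 4 and 1 of these markers, and LYZ, lysozyme, was the brightest at a mean of 12.29 over all arrays. Between the trios 1 macrophage marker (LYZ) and 1 fibroblast marker (PDGFRB) were higher in the mixed trio without overlap, by 0.37 and 0.18. The endothelial marker PECAM1 was lower without overlap, by -0.36. Over all genes 8.54% were higher in the mixed trio without overlap and 9.01% lower, and 1 marker of 10 or 11 is near those shares. The other 9 macrophage markers overlapped, and the lowest difference among them, -0.55, ran against LYZ. The part of such cells in the differences was not tested. In arrays of whole cultures, fewer cells of a type and less RNA per cell cannot be told apart. An array has no true zero, so a low level is not a level of 0.

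Of 18274 genes, 1561 (8.54%) had all 3 values of the mixed trio above all 3 of the all-DMSO trio, and 1646 (9.01%) had the reverse order. Such genes are called separated here. The large differences lay on one side. Among separated genes the medians of the trios differed by at least 1 log2 unit, that is 2-fold, in 16 genes higher in the mixed trio (0.0876%) and in 0 genes higher in the all-DMSO trio (0%). At 0.5 log2 units the counts were 98 (0.536%) and 50 (0.274%). The median difference over all genes, mixed minus all-DMSO, was 0.0005, and single genes ran from -0.92 to 1.96. Leaving out DMSO 8 h replicate 4 changed the 2-fold counts to 10 and 2.

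**Figure D2:**
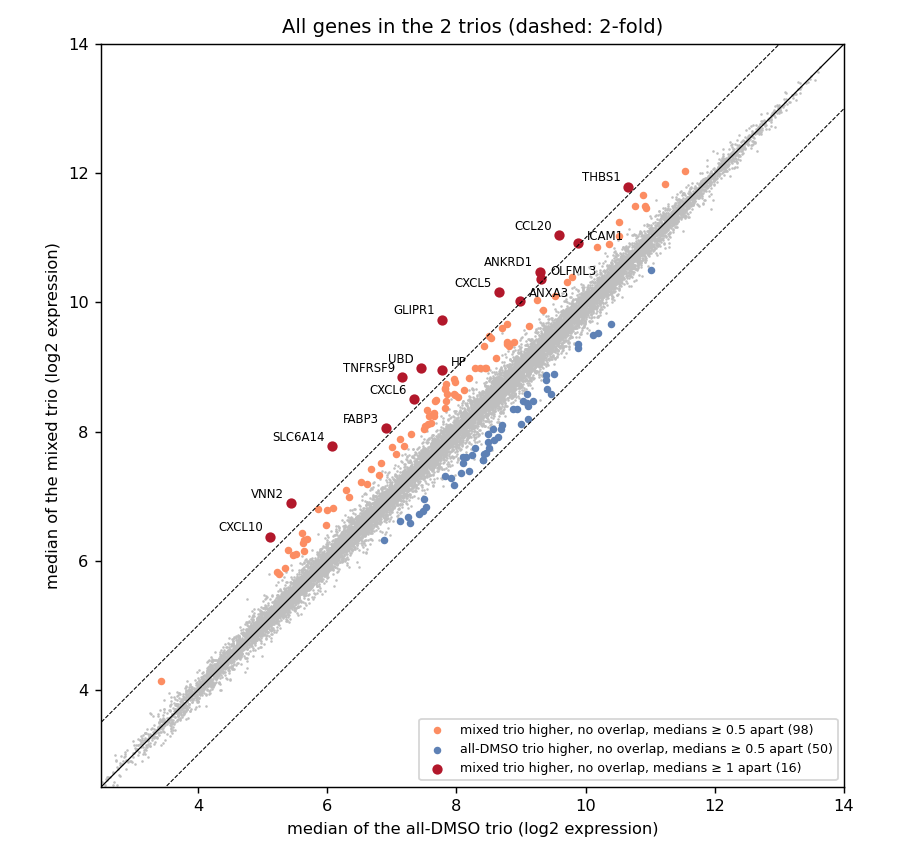
Median log2 expression of each of 18274 genes in the all-DMSO trio (x axis) and the mixed trio (y axis), with lines of equality (solid) and 2-fold difference (dashed). The 16 labelled genes are separated and at least 2-fold higher in the mixed trio, and no separated gene lies beyond the lower dashed line.

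The 4 markers were separated, all higher in the mixed trio, and these are among the values that chose the arrays. CXCL10 was 5.87, 5.11 and 4.57 in the all-DMSO trio and 6.07, 6.37 and 7.15 in the mixed trio, a difference of medians of 1.25 log2 units. Whether the lowest of these values were above background was not measured, so no fold is given. The nearest values of the trios were those of DMSO 4 h replicate 1 and DMSO 8 h replicate 5. Both trios lay below all of the 14 low arrays, which ran from 7.45 through a median of 8.12 to 9.51, and the other 4 high arrays read 7.10 to 7.98. Silymarin 24 h replicate 1 of the mixed trio lay inside the range of the other 4 high arrays. The gap between the trios was small beside the spread inside each of them.

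SLC6A14 had the clearest gap of the markers. It was 6.35, 6.07 and 5.32 in the all-DMSO trio and 7.80, 7.75 and 7.77 in the mixed trio, a difference of 1.70. Whether its all-DMSO values were above background was not measured either, so no fold is given. The mixed trio was tight, and the other 4 high arrays lay just above it at 7.85 to 8.54. In the low arrays the lowest value was 7.01, the median 8.65 and the highest 10.28, so the mixed trio fell inside that range and the all-DMSO trio below it.

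CXCL8 was 9.07, 8.16 and 8.43 in the all-DMSO trio and 9.32, 9.29 and 10.48 in the mixed trio, a difference of 0.89 or 1.86-fold. Only silymarin 24 h replicate 1 reached the other 4 high arrays, at 10.02 to 10.33, while the low arrays ran from 9.21 through 10.36 to 10.83. The size of the CXCL8 difference rested on single arrays. It was 0.57 without DMSO 8 h replicate 1 and 1.47 without silymarin 8 h replicate 3. HP was 8.54, 7.78 and 7.30 against 8.57, 8.95 and 9.6, a difference of 1.18 or 2.26-fold, and DMSO 4 h replicate 1 lay next to DMSO 8 h replicate 5. The low arrays held HP at 8.47 to 9.92, so the mixed trio and DMSO 4 h replicate 1 stood within them and the 8 h arrays of the all-DMSO trio below.

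**Figure D3:**
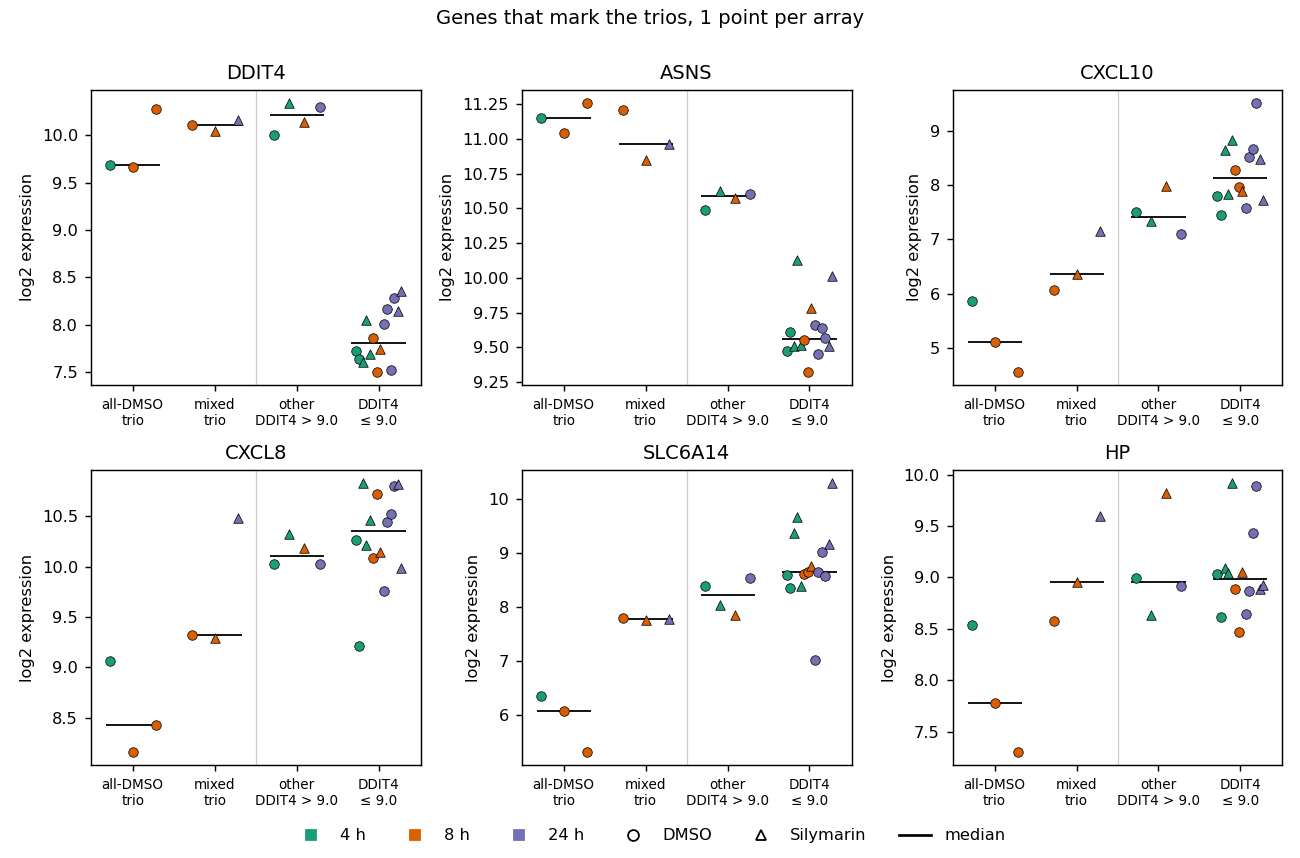
Log2 expression of DDIT4, ASNS and the 4 markers, 1 point per array, by trio, in the other 4 arrays with DDIT4 above 9.0 and in the 14 at or below it. Colours give the time, circles DMSO, triangles silymarin and bars the median; SLC6A14 shows 6.07 and 7.77 as the trio medians.

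Chemokines for neutrophils formed the group with the highest median difference apart from the markers. Of 6 measured, 5 were separated and higher in the mixed trio, against 8.54% over all genes, 0 were separated the other way, and the median difference was 0.86, against 0.0005 over all genes. CXCL5 was 8.88, 8.65 and 8.31 in the all-DMSO trio and 9.94, 10.16 and 10.38 in the mixed trio, a difference of 1.5. CXCL6 followed at 7.35, 7.36 and 6.78 against 8.50, 8.12 and 8.70, a difference of 1.15. CXCL2 and CXCL3 were separated by 0.43 and 0.27, and CXCL1 differed by 0.82 with overlapping trios, since DMSO 4 h replicate 1 read 9.40 and DMSO 8 h replicate 5 read 9.26. Of 8 chemokines for lymphocytes and monocytes, 4 were higher in the mixed trio, 1 (CXCL9) was lower and 3 overlapped, with a median of 0.21. CCL20, which draws dendritic cells and Th17 cells, was 10.15, 9.46 and 9.59 against 11.04, 10.997 and 11.83, a difference of 1.45. CX3CL1 differed by 0.48.

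NF-kB subunits and the inhibitors that NF-kB itself raises were mostly higher in the mixed trio. Of 16 measured, 10 were separated and higher in the mixed trio, against 8.54% over all genes, and 6 overlapped, with a median of 0.23. NFKB2, the p100 subunit, was 7.90, 7.63 and 7.83 in the all-DMSO trio and 8.74, 8.62 and 8.84 in the mixed trio. The mixed values lay inside the range of the low arrays, 8.25 to 9.04, and the all-DMSO values below it. TNFAIP3, the enzyme A20 that shuts the pathway off, was 8.00, 7.54 and 7.51 against 8.27, 8.33 and 9.0, a difference of 0.79. TNFAIP2 differed by 0.85 and NFKBIA, the classical inhibitor, by 0.47, whereas the subunits RELA and REL overlapped.

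Among 18 inflammatory effectors, 5 were higher in the mixed trio (TNFRSF9, ICAM1, IL32, SOD2 and CSF1), IL6 was lower and 12 overlapped, with a median of 0.03 and 8.54% higher and 9.01% lower over all genes. TNFRSF9, a costimulatory receptor of the TNF receptor family, was 7.73, 6.97 and 7.16 in the all-DMSO trio and 8.84, 8.35 and 8.93 in the mixed trio, a difference of 1.68. ICAM1, an adhesion molecule for leukocytes, was 9.88, 9.95 and 9.76 against 10.86, 10.91 and 11.25, a difference of 1.03. For ICAM1 the spread inside each trio was smaller than the gap between them, and for TNFRSF9 the spread of the all-DMSO trio was wider than the gap. CSF1, the growth factor of macrophages, differed by 0.98. IL6 and TNF themselves were dim, with medians of 4.97 and 4.80 for IL6 and of 5.89 and 5.78 for TNF in the all-DMSO and mixed trios.

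The remaining genes with a 2-fold difference came from several functions. GLIPR1, a member of the CAP family of cysteine-rich proteins, had the highest difference of all, 1.96, with 8.58, 7.77 and 7.37 in the all-DMSO trio and 9.89, 8.94 and 9.73 in the mixed trio. UBD, a ubiquitin-like protein that TNF and interferon gamma induce, was 7.49, 7.44 and 7.2 against 9.01, 8.84 and 8.98, a difference of 1.54 with little spread in either trio. ANKRD1 and THBS1, targets of the YAP co-activator and of TGF-beta, differed by 1.18 and 1.13. FABP3, a fatty acid carrier, differed by 1.13, OLFML3 by 1.05, VNN2 by 1.45 and ANXA3 by 1.04. In the list of TGF-beta and YAP matrix genes 6 of 16 were higher in the mixed trio, against 8.54% over all genes, and 10 overlapped, with a median of 0.08, and CCN1 differed by 0.80.

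Beyond HP, the acute phase and complement list split into a few separated genes and many that overlapped. Of 22 measured, 5 were higher in the mixed trio (HP, SERPINA3, C4BPA, ITIH4 and CP), against 8.54% over all genes, and 17 overlapped, with a median of 0.14. CP, ceruloplasmin, differed by 0.62 and C4BPA, an inhibitor of complement, by 0.56. Of 22 interferon-stimulated genes, 3 were higher and 2 lower in the mixed trio and 17 overlapped, with a median of 0.08. These counts are near the shares over all genes, 8.54% and 9.01%. GBP2, a guanylate-binding protein, was 6.02, 5.86 and 5.57 against 6.80, 6.57 and 7.29. IFIT1 ran the other way, at 6.14, 6.21 and 5.90 against 5.83, 5.86 and 5.59.

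Regulators and targets of the stress response that marks both trios mostly overlapped between them. Of 15 regulators of the integrated stress response, 3 were higher in the mixed trio (ATF3, PPP1R15A and JDP2). EIF2AK4, the sensor GCN2, was lower and 11 overlapped, against 8.54% higher and 9.01% lower over all genes. The share higher was above that over all genes and the share lower below it, but 15 genes are few. PPP1R15A, the phosphatase subunit GADD34 that ends the response, was 9.07, 9.17 and 9.13 in the all-DMSO trio and 9.63, 9.52 and 9.70 in the mixed trio. The low arrays read 9.0 to 9.41 and the other 4 high arrays 9.82 to 10.19, so the mixed trio stood above the low arrays, the other 4 high arrays further above them, and the all-DMSO trio among them. Of 22 other ATF4 targets, 4 were higher in the mixed trio (CHAC1, GDF15, HMOX1 and CARS1), 5 lower (PSAT1, PHGDH, ALDH1L2, WARS1 and XPOT) and 13 overlapped. Over all genes 8.54% were higher and 9.01% lower, so these targets were separated more often than that in both directions. The counts moved with the scaling. They were 4 higher and 3 lower with repeated quantile normalization and with cyclic loess, and 4 and 6 with arrays re-centred to 1 median. The median difference of these targets, 0.01, turned to -0.02 when arrays were re-centred to 1 median and to -0.01 with cyclic loess.

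GDF15, a stress hormone, was 10.80, 10.88 and 11.15 in the all-DMSO trio and 11.66, 11.52 and 11.81 in the mixed trio, a difference of 0.78. The low arrays had a lowest value of 10.26 and a median of 10.79, and DMSO 8 h replicate 4 and the whole mixed trio lay above all of them. The other 4 high arrays read 11.68 to 11.86. ALDH1L2, a mitochondrial folate enzyme, was 7.92, 7.81 and 7.92 against 7.28, 7.31 and 7.04, a difference of -0.64, and every trio array lay above the low arrays at 5.79 to 6.96. PHGDH, the first enzyme of serine synthesis, differed by -0.22. SLC7A11, the cystine importer that ATF4 and NRF2 both control, was 10.77, 10.68 and 11.03 against 11.16, 11.04 and 11.04, with low arrays at 8.93 to 10.13. For SLC7A11 the trios lay close together and far above the low arrays. The other 4 high arrays, at 10.55 to 10.84, also lay above the low arrays.

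Antioxidant targets of the transcription factor NRF2 were separated in 7 of 19, all higher in the mixed trio, and 12 overlapped, with a median of 0.09. Over all genes 8.54% were higher in the mixed trio. HMOX1, haem oxygenase, was 10.59, 10.51 and 10.30 in the all-DMSO trio and 11.24, 11.07 and 11.64 in the mixed trio. The all-DMSO trio lay inside the low arrays, 10.17 to 10.63, and the mixed trio above them. The other 4 high arrays read 10.62 to 11.16. SRXN1 differed by 0.54 and GCLM, a subunit of the enzyme that starts glutathione synthesis, by 0.50. Endoplasmic reticulum chaperones were separated in 5 of 23, all higher in the mixed trio but by no more than 0.17, as for CRELD2.

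Of 14 heat shock genes, 2 were higher in the mixed trio, 5 were lower and 7 overlapped, against 8.54% higher and 9.01% lower over all genes. HSPB8, a small chaperone, differed by 0.79 and HSPA4L, a relative of HSP70, by -0.79. CYP1A1, the classical target of the aryl hydrocarbon receptor, was 9.18, 9.35 and 9.24 in the all-DMSO trio and 10.03, 10.05 and 9.88 in the mixed trio. It was 1 of 9 measured genes of drug metabolism, of which 2 were higher and 1 lower in the mixed trio. Cholesterol synthesis genes were separated in 0 of 17, and their median difference was -0.04.

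**Figure D4:**
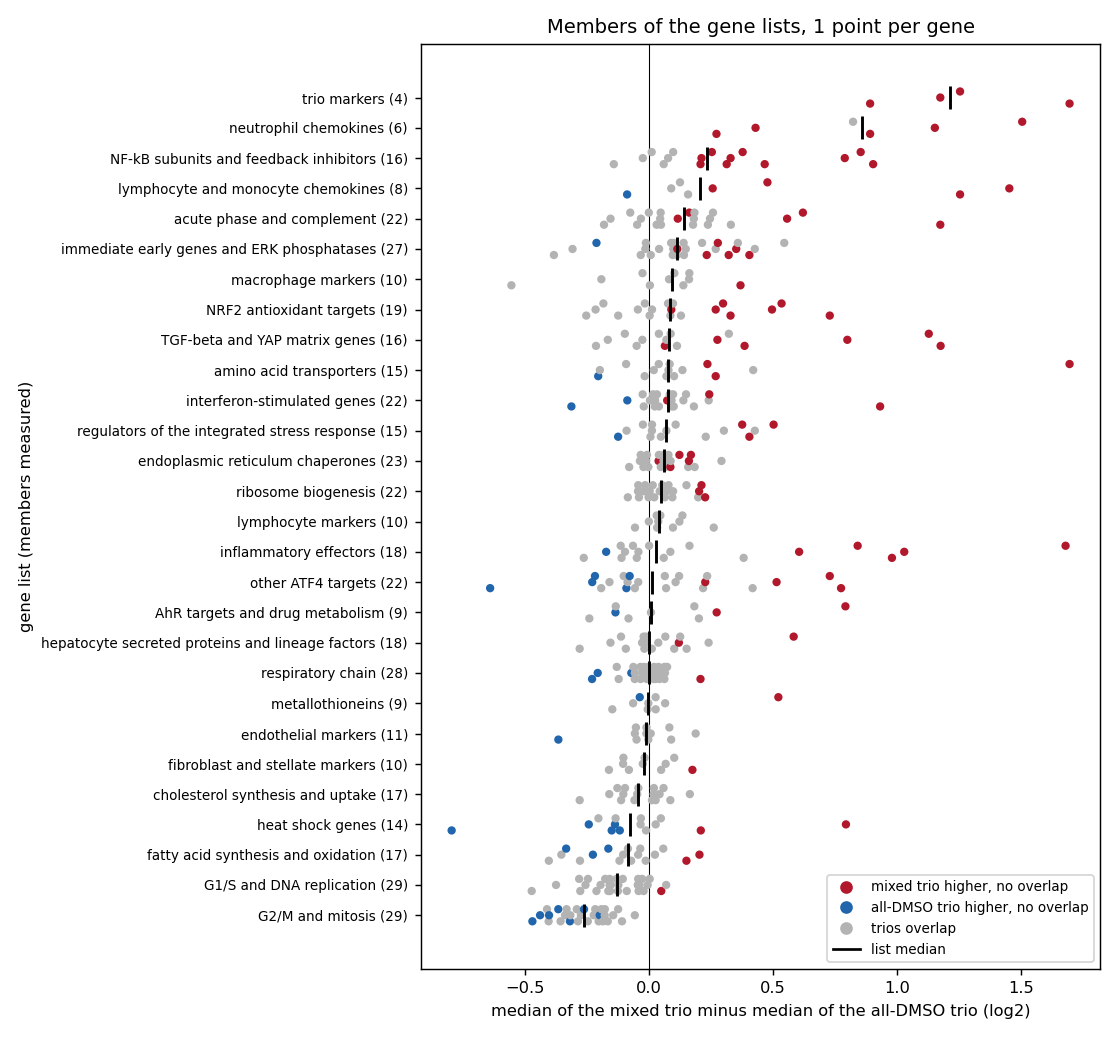
Difference of trio medians, mixed minus all-DMSO, on the log2 scale for each measured member of 28 gene lists, 1 point per gene, with bars at the list medians. Red and blue points are separated genes higher in the mixed and the all-DMSO trio, and grey points overlap; the neutrophil chemokines have a median of 0.86 and the G2/M genes of -0.26.

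Genes higher in the all-DMSO trio differed by less. AKR1D1, a reductase of bile acid synthesis, was 9.0, 8.89 and 9.08 in the all-DMSO trio and 8.11, 8.00 and 8.31 in the mixed trio, a difference of -0.89. The low arrays ran from 8.81 to 9.86 and the other 4 high arrays from 8.98 to 9.34, so it was the mixed trio that stood apart. SLC27A2, which activates very long chain fatty acids, was 9.67, 9.35 and 9.46 against 8.48, 8.59 and 8.91, a difference of -0.88. Here the mixed trio shared the range of the low arrays, 8.45 to 9.26, and the all-DMSO trio lay above it. NR0B2, the bile acid responsive repressor SHP, was 9.16, 9.40 and 9.63 against 8.84, 8.54 and 8.66.

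UGT2B4, which conjugates bile acids with glucuronic acid, differed by -0.77 in the same direction, and its mixed values of 7.76, 7.54 and 7.74 lay below the low arrays at 8.30 to 9.28. LRP2, the endocytic receptor megalin, had the lowest difference of all genes, -0.92, from 9.11, 8.82 and 9.22 to 8.46, 8.07 and 8.19. The transcription factors FOXP2, RFX6, RARB and ETV1 differed by -0.85, -0.80, -0.77 and -0.73, and ADAM23 and TRHDE by -0.84 and -0.79. ADAM23 in the all-DMSO trio, at 8.63, 8.38 and 8.41, stood above the low arrays at 7.27 to 7.88, whereas FOXP2 was 7.68, 7.42 and 7.56 in the mixed trio against low arrays at 8.22 to 8.90.

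Most cell cycle genes overlapped between the trios. All 29 measured G2/M and mitosis genes had a difference below 0, with a median of -0.26, and 7 were separated, against 9.01% over all genes (CCNB2, CCNA2, AURKA, TOP2A, UBE2C, ASPM and CDC25C), while 22 overlapped. With arrays re-centred to 1 median all 29 stayed below 0 but 3 were separated, about the share over all genes under that scaling, 1704 of 18274. CCNB2, a mitotic cyclin, was 10.87, 10.97 and 10.55 in the all-DMSO trio and 10.40, 10.45 and 10.38 in the mixed trio, with low arrays at 10.65 to 11.31. The 3 mixed values lay below the low arrays and only DMSO 8 h replicate 4 of the all-DMSO trio joined them. AURKA, a mitotic kinase, differed by -0.44. Of 29 genes of G1/S and DNA replication, 26 lay below 0, with a median of -0.13, but 28 overlapped and the 1 separated gene was higher in the mixed trio.

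Set against the 14 low-DDIT4 arrays, the 2-fold genes set the all-DMSO trio apart more often than the mixed trio. Of the 16 genes with a 2-fold difference, the median of the mixed trio lay between those of the all-DMSO trio and the low arrays in 14. All 3 all-DMSO values lay outside the range of the low arrays in 14 of the 16, and all 3 mixed values in 1. The median over the 16 genes was -1.48 for the all-DMSO trio minus the low arrays, -0.18 for the mixed trio and 0.07 for the other 4 high arrays. Of the 98 genes at 0.5 log2 units, 67 had the all-DMSO trio outside the low range and 12 the mixed trio. For the 50 genes higher in the all-DMSO trio the order turned, with the all-DMSO trio outside in 8 and the mixed trio in 25. Their medians were 0.14 for the all-DMSO trio, -0.51 for the mixed trio and -0.14 for the other 4 high arrays. Relative to the all-DMSO median, the median of the other 4 high arrays lay on the mixed side in most genes. This held in 16 of the 16 genes, 98 of the 98 and 46 of the 50. Among the 16, the low median lay beyond the mixed median in 14 and between the trio medians in 2. So the low arrays lay on the mixed side as well. The genes were picked for a gap between the trios, which favours such an outcome, and the share over all genes was not measured. These counts describe genes picked on the values of both trios.

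**Figure D5:**
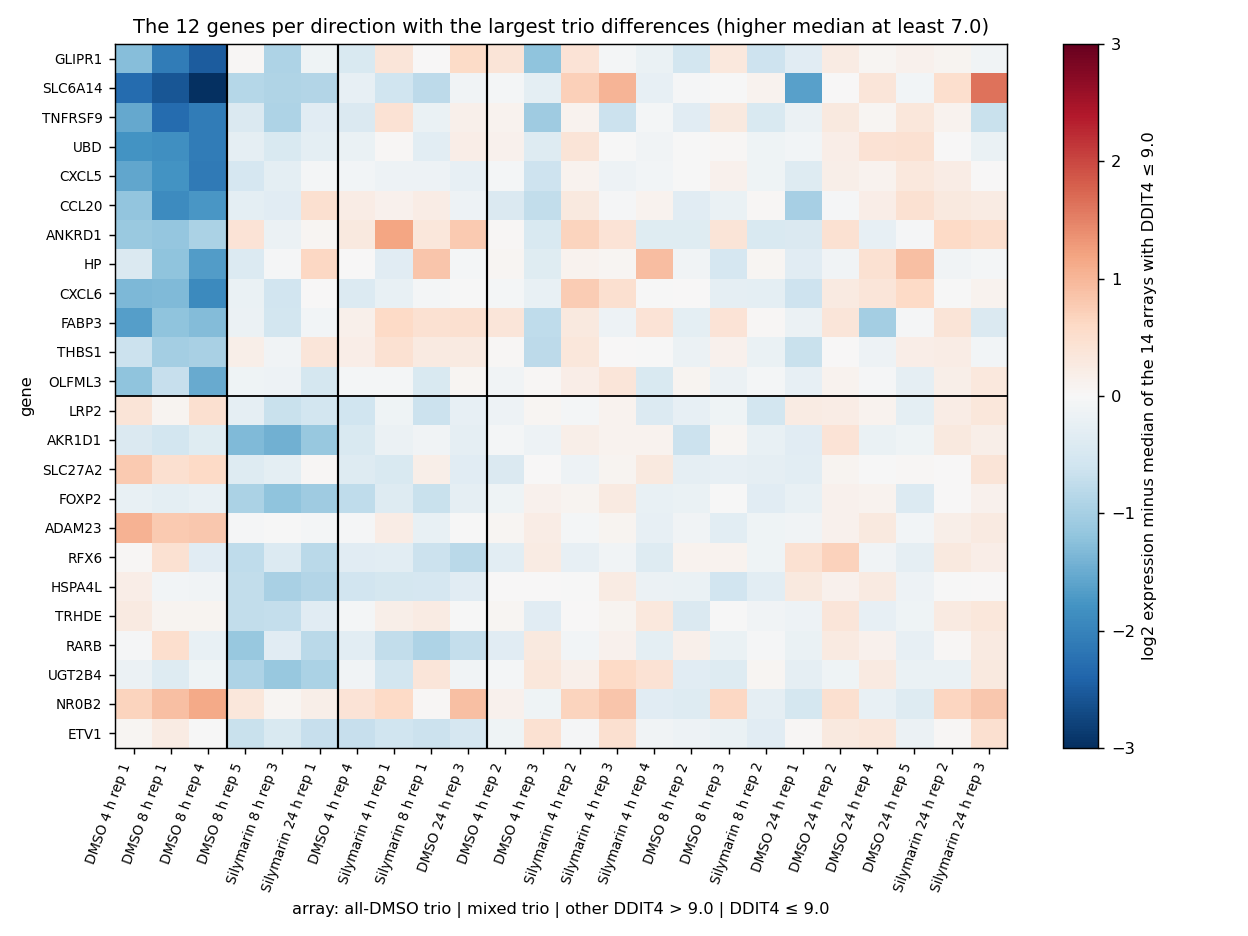
Log2 expression minus the median of the 14 low-DDIT4 arrays for the 12 genes per direction with the largest difference of trio medians among separated genes whose higher trio median was at least 7.0, by array, with black lines between the all-DMSO trio, the mixed trio, the other 4 high arrays and the low arrays. The upper genes are blue in the all-DMSO trio, as SLC6A14 at 6.07 against a low median of 8.65, and several lower genes are blue in the mixed trio, as AKR1D1 at 8.11 against 9.44.

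Whether the markers vary together could be tested in the 14 low-DDIT4 arrays, none of which is in a trio, although they entered the gene means used for the similarity. There CXCL10 and CXCL8 had a Pearson r of 0.75 (permutation p = 0.00239, adjusted over 6 pairs 0.00717) and a Spearman rho of 0.79 (permutation p = 0.0012, adjusted 0.0072). Without the 2 arrays farthest from the median of CXCL10, r was 0.78. CXCL10 and HP had r of 0.78 (permutation p = 0.00089, adjusted 0.00534) and rho of 0.65 (permutation p = 0.0149, adjusted 0.0447). Without the 2 farthest arrays the r of CXCL10 and HP was 0.54 (permutation p = 0.0733, adjusted 0.22) and no longer passed. Dropping those arrays narrows the range of CXCL10 and leaves 12 arrays, so it cannot show whether the relation rested on them. Leaving out 1 array at a time, its r kept an adjusted p under 0.05 in 14 of 14 cases, and its rho lost it in 6, without DMSO 4 h replicate 3, silymarin 4 h replicate 2 or 4, or DMSO 24 h replicate 1, 4 or 5 (permutation p adjusted 0.106 to 0.151). As deviations from the mean of each time point, the correlations were 0.75 for CXCL10 with CXCL8 and 0.81 for CXCL10 with HP. The labels give no batch or scan date, so no further split was made.

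SLC6A14, the marker with the widest gap between the trios, did not pass with any other marker. Its r was 0.08 with CXCL10, 0.28 with CXCL8 and 0.09 with HP, with permutation p-values adjusted over the 6 pairs of 0.798, 0.475 and 0.798. CXCL8 and HP had r of 0.42 (permutation p = 0.135, adjusted 0.269). As a description, the 120 pairs among the 16 genes with a 2-fold difference had a median r of 0.50 over the 14 arrays, and 90.0% of the pairs were above 0. Over all pairs of the 18274 genes the median r was 0.02, but the 16 genes also varied more, with a median SD of 0.40 against 0.12. The median r was 0.27 among the 98 genes and 0.28 among the 50.

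The motif GGNNNTTCC, with 9 letters and both strands searched and a place that reads the same on both strands counted once, was present in the 250 bases of 17.1% of 35116 RefSeq promoters. Of the 16 genes, 14 had a promoter in the table and 11 of the 14 (78.6%) held a match. The shares were 29 of 71 (40.8%) for the 98 genes and 8 of 40 (20%) for the 50. CXCL5, CXCL6, CXCL8 and TNFRSF9 shared the letters GGAATTTCC, which begin 90, 89, 91 and 73 bases before their starts. UBD held GGGATTTCC at 52 bases and ICAM1 held GGAAATTCC at 186. A match is a run of letters and not a measured binding site.

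The labelled comparison of silymarin with DMSO asks what the treatment changed at each time. A limma model of the 6 labelled groups over all 24 arrays called 0 of 18274 genes (0%) at 4 h, 8 h and 24 h at an adjusted p under 0.05, while 453, 719 and 553 genes had an unadjusted p under 0.05. Nothing in the labels says that replicates were separate cultures, so the p-values measure the spread between these samples, which may be technical. Among the 16 genes 3, 3 and 0 had an unadjusted p under 0.05. These genes were picked on values of arrays that are also in this fit, so the 3 counts are no test of the treatment. CXCL10 differed by 1.01 (SE 0.68, limma adjusted p = 0.99993) at 4 h, 1.02 (SE 0.70, limma adjusted p = 0.9914) at 8 h and -0.48 (SE 0.70, limma adjusted p = 0.99971) at 24 h, silymarin minus DMSO.

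The 3 all-DMSO arrays sat in the DMSO groups at 4 h and 8 h. Without the 6 trio arrays the CXCL10 difference was 0.58 at 4 h, -0.18 at 8 h and -0.17 at 24 h (limma adjusted p = 0.99941, 0.93197 and 0.96144). The 8 h groups then held only DMSO replicates 2 and 3 and silymarin replicates 1 and 2. Of these only silymarin replicate 1 had DDIT4 above 9.0, and DDIT4 differed by 1.26 between the groups. The turned sign of CXCL10 at 8 h therefore cannot be told apart from the DDIT4 level. At 24 h silymarin kept replicates 2 and 3. HP at 8 h differed by 1.07 (SE 0.33, limma adjusted p = 0.9914) with the trios and by 0.76 (limma adjusted p = 0.682) without them. SLC6A14 went from 0.83 to -0.32 at 8 h and from 0.72 to 1.37 at 24 h. The limma fit without the trios also called 0 genes at each time, with 394, 1207 and 1067 at an unadjusted p under 0.05.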

How the data were processed

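Total RNA of each sample was measured on an Affymetrix Human Gene 1.0 ST array. The values the authors deposited are log2 expression from RMA, run in oligo according to the submitters' processing notes, with no version given. RMA normalizes by quantiles, so shifts shared by most genes are removed. The array annotation gave 19302 of 28869 probe sets 1 symbol, 1729 several and 7838 none. Probe sets with 1 symbol were used, and the brightest was kept for 757 genes with several. The number of arrays limits the precision.

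The trios were described by overlap and by differences of medians. The labelled groups were fitted with limma 3.58.1 (lmFit and eBayes, two-sided, Benjamini-Hochberg over all genes) in R 4.3.3. Correlations used 100000 two-sided permutations in scipy 1.17.1. The scripts were tested on simulated data. Genes named are the 4 markers, the 12 per direction with the largest difference among separated genes whose higher median was at least 7.0, and 3 per list, while other members were named after their values were seen. Of 511 list entries 466 were measured, 12 of them listed under a synonym and found under their RefSeq symbol. The members and lists were chosen with earlier results of these data known. Promoter sequences are from RefSeq. Figures were drawn with matplotlib 3.10.9. Alternatives were other scalings, other probe set rules, other size thresholds, other limma settings and leaving out arrays.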

Additional observations from a re-analysis of the deposited data

Results flagged for a closer look

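Single arrays far from the rest of their labelled group were looked for in 28 genes over the groups of 4 or 5 arrays, 112 gene and group sets in all, and 7 stood out. Chance alone marks about 1 in 20 such sets when genes are not picked on their values. The 28 genes were the markers, those with the largest trio differences, DDIT4 and ASNS, so that rate is no yardstick for the 7. DMSO 4 h replicate 1, a member of the all-DMSO trio, had SLC6A14 at 6.35 against 8.34 to 8.59 in the other DMSO arrays at 4 h. The same array had OLFML3 at 9.31 against 10.41 to 10.55. DDIT4 was 10.34 in silymarin 4 h replicate 1 against 7.6 to 8.05 in the other silymarin arrays at 4 h. DDIT4 was 10.30 and ASNS 10.60 in DMSO 24 h replicate 3, against 7.52 to 8.28 and 9.45 to 9.66 in the other DMSO arrays at 24 h. SLC6A14 was 7.01 in DMSO 24 h replicate 1, against 8.54 to 9.01 in the other DMSO arrays at 24 h. AKR1D1 was 9.86 in DMSO 24 h replicate 2 against 9.11 to 9.32 in its group.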

How the results depend on the processing

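The 4 markers kept the direction of their trio difference under every alternative run. Since the 4 were separated, leaving out an array could not turn the direction, so only the sizes are informative there. Leaving out 1 trio array at a time gave 0.88 to 1.65 for CXCL10, 0.57 to 1.47 for CXCL8, 1.56 to 2.07 for SLC6A14 and 0.79 to 1.5 for HP. The count of genes higher in the mixed trio was 98 at 0.5 log2 units, 0 at 2 and 10 to 22 with 1 array left out, against 16. The count higher in the all-DMSO trio was 50 at 0.5 log2 units and 0 to 2 with 1 array left out. Other scalings and probe set rules gave 14 to 19 and 0. The counts of all separated genes, 1561 and 1646, moved more with the scaling. They were 1108 and 1704 with arrays re-centred to 1 median and 1910 and 1602 with cyclic loess. List counts moved too, as for endoplasmic reticulum chaperones, with 3 higher when re-centred and 8 with cyclic loess, against 5. The acute phase list had 3 higher and 1 lower when re-centred. Correlations with 1 array left out ranged from -0.22 to 0.28 for CXCL10 and SLC6A14, and from -0.14 to 0.22 for SLC6A14 and HP, the lowest in both without DMSO 24 h replicate 1. Without the 2 farthest arrays r was 0.54 for CXCL10 and HP, -0.27 for CXCL8 and SLC6A14 and -0.084 for SLC6A14 and HP. Silymarin against DMSO at 24 h called 1 gene with repeated quantile normalization and 0 to 1 with 1 array left out, the 1 without silymarin 4 h replicate 1, silymarin 4 h replicate 2 or DMSO 8 h replicate 3. No alternative called a gene at 4 h or 8 h. Correlations of same-numbered deviations from the group means ran from -0.29 to 0.57. Samples with different numbers were not compared, so whether replicate numbers pair the samples was not settled. The fit with the replicate number as a block called 0 genes at each time. The cause of these changes was not tested. Genes near background have compressed differences, so a low level limits what the arrays can show.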

Other observations

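In other gene groups most members overlapped between the trios, and the counts can be read against the 8.54% of all genes that were higher and the 9.01% that were lower in the mixed trio. Of 15 amino acid transporters, 3 were higher in the mixed trio (SLC6A14, SLC7A11 and SLC7A5), SLC6A9 was lower and 11 overlapped, with a median difference of 0.08. Of 27 immediate early genes and ERK phosphatases, 6 were higher in the mixed trio, 1 was lower and 20 overlapped. EGR1, an early response transcription factor, read 8.65, 8.45 and 8.30 in the all-DMSO trio and 8.51, 9.0 and 9.35 in the mixed trio, which overlapped. Ribosome biogenesis genes were higher in the mixed trio in 3 of 22 and overlapped in 19. NOP2, an RNA methyltransferase of the nucleolus, had the largest of these differences at 0.23.

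Metabolic genes mostly overlapped. Fatty acid genes were higher in the mixed trio in 2 of 17, lower in 3 and overlapping in 12, while 13 of the 17 had a difference below 0, with a median of -0.08. PPARA, the fasting regulator of fatty acid oxidation, read 8.86, 8.62 and 9.04 against 8.52, 8.28 and 8.54, with low-DDIT4 arrays at 8.02 to 8.42. Respiratory chain genes were higher in 1 of 28 and lower in 3. Metallothioneins and zinc transport genes were higher in 1 of 9, MT1M by 0.52, and lower in 1. Of 18 hepatocyte secreted proteins and lineage factors, 2 were higher in the mixed trio and 16 overlapped, with APOH, a plasma phospholipid-binding protein, at 11.1, 10.91 and 10.68 against 11.46, 11.498 and 11.75. The list medians of the hepatocyte, respiratory chain and metallothionein genes lay near 0 and changed sign with the scaling.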
